A study of Rattus norvegicus with 6 samples.

Results

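The transcripts of the oxidative phosphorylation system were followed gene by gene in the vestibular epithelium of rats exposed to 3,3'-iminodipropionitrile (IDPN). Members were the protein-coding rows of the gene table whose symbols begin with Ndufa, Ndufb, Ndufc, Ndufs, Ndufv, Sdha to Sdhd, Uqcr, Cox4 to Cox8, Atp5 or Mt-, which left the Ndufaf and Sdhaf assembly factors aside. The rule used symbols alone and no measured value. It found 103 rows of 32883, with 99 symbols, since Cox6b1, Ndufa10l1, Ndufv3 and Uqcrb each had 2 rows. Of these, 101 rows were taken as subunits, 88 nuclear encoded and 13 mitochondrially encoded. The other 2, Atp5if1 (the inhibitor of ATP synthase) and Atp5s (a factor coupled to it), carry the name without being subunits. A low-count filter left 96 rows to test, of which 81 were nuclear encoded subunits and 13 were mitochondrially encoded. The 7 rows that were not tested had at most 6 counts in any library.

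The tissue came from 6 adult male Long-Evans rats of an outbred strain. In the Control group, 3 rats drank plain water, and in the IDPN-4wk group 3 rats drank water with 20 mM IDPN, a nitrile toxic to vestibular hair cells (HCs), during 4 weeks. Each library held the 2 utricles and 6 cristae of 1 rat, that is, whole epithelium with HCs, supporting cells, nerve endings and whatever neighbouring tissue remained. Libraries were made by SMART-seq2, an oligo-dT method that amplifies full-length cDNA. No genetic modification was involved. The animal codes of the IDPN-4wk rats share a prefix that no control has, the labels do not explain it, and its part cannot be told apart from the treatment.

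In the inner mitochondrial membrane, complex I (NADH dehydrogenase) and complex II (succinate dehydrogenase) pass electrons to ubiquinone, complex III (the cytochrome bc1 complex) passes them to cytochrome c, and complex IV (cytochrome c oxidase) passes them to oxygen. Complexes I, III and IV pump protons, and complex V (ATP synthase) uses the proton gradient to make ATP. Complex II is built from nuclear genes only, whereas the others combine nuclear encoded subunits with subunits made inside the mitochondrion from mitochondrial DNA, which is transcribed as long precursors that are then cut into single messengers. HCs depend on this system, since they spend much ATP on ion transport and synaptic release.

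The libraries held between 13358678 and 18561991 counts. A level is given in CPM, counts per 1000000 after TMM scaling (the trimmed mean of M-values, which aligns the libraries on the bulk of genes), and 3 counts in a library correspond to between 0.155 and 0.216 CPM. TMM factors were 0.955 to 0.968 for the controls and 1.03 to 1.05 for the treated rats. The tissue label was checked on HC markers, which were present in every library. Their summed level ranged from 2442 to 2587 CPM in Control and from 1298 to 1666 CPM in IDPN-4wk, and 12 of 13 tested were lower in IDPN-4wk at an adjusted p (Padj) under 0.05. In whole tissue, fewer cells of a type and less RNA per cell cannot be told apart.

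Calls fell unevenly on the 2 genomes that encode the subunits. Of the 13 mitochondrially encoded genes, 6 were downregulated in IDPN-4wk (46.2%) and none was upregulated, with 11 lower and none higher at an unadjusted p under 0.05 (edgeR). These messengers are cut from shared precursors, so their calls are not independent results. Of the 81 nuclear encoded subunits tested, 3 were downregulated (3.70%) and none was upregulated, with 5 lower and 2 higher at an unadjusted p under 0.05. For comparison, over all 14352 genes tested, 19.4% were called in either direction, 11.5% lower and 7.89% higher. Log2-Fold changes had a median of -0.30 over the mitochondrially encoded genes, -0.02 over the nuclear encoded subunits and 0.02 over all genes tested. The medians of nuclear complexes given below lie near 0 and their sign is not stable, since those of complexes III, IV and V changed sign when 1 library was left out and those of I, III, IV and V with library size alone. DESeq2, which called 18.3% of the genes it gave an adjusted p, called 4 nuclear and 9 mitochondrially encoded subunits lower and none higher. With library size alone, 1 nuclear subunit was called lower and 3 higher, against 25.6% of all genes called. Outside complex I, no nuclear subunit was called by DESeq2 or had an unadjusted p under 0.05 in edgeR with TMM and all 6 libraries. The difference between the genomes of origin was itself not tested. None of these subunits passed the stricter rule of a fold change over 1.5 in addition to Padj, which 9.71% of all genes passed. The nuclear share of 3.70% was below the background and the mitochondrial share above it, but the latter depended on the setting. With library size alone 2 of 13 mitochondrially encoded genes were called against 25.6% of all genes, and leaving out 1 library gave between 2 and 8 of 13 against between 12.0 and 19.9%.

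**Figure D1:**
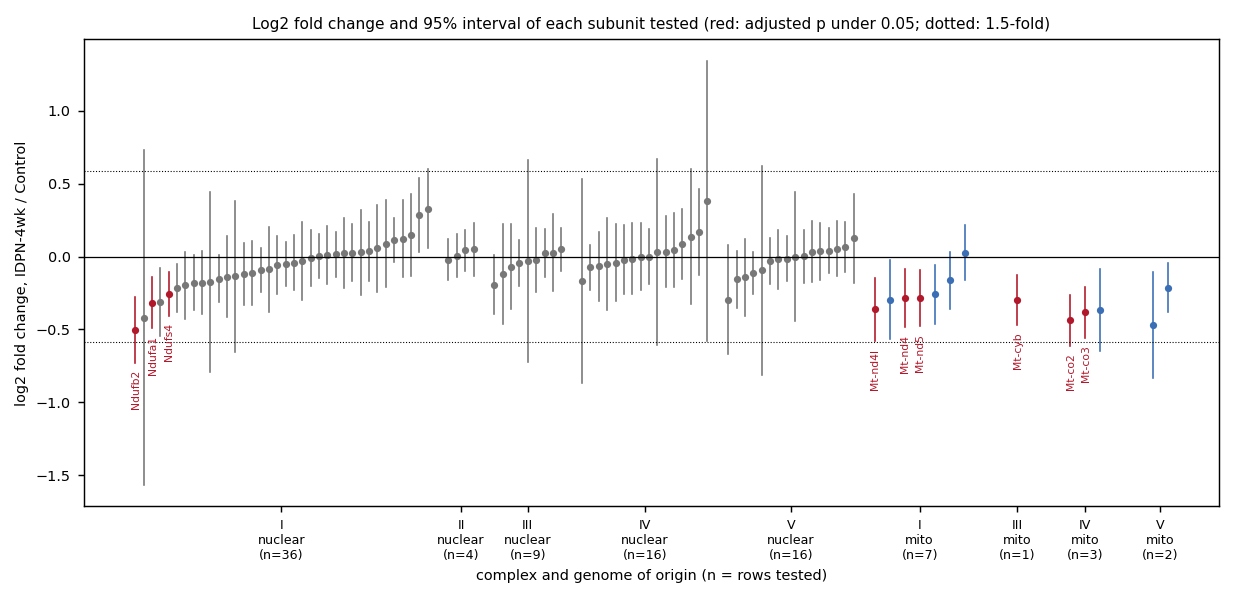
Log2-Fold change of IDPN-4wk over Control (vertical axis) for each subunit tested, grouped along the horizontal axis by complex and genome of origin; points are edgeR estimates and lines their 95% intervals, red marks Padj under 0.05, grey other nuclear and blue other mitochondrially encoded subunits, and the dotted lines mark a 1.5-fold change. The 3 nuclear calls all lie in complex I, while 12 of the 13 mitochondrially encoded genes lie below 0.

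Among the nuclear encoded subunits of complex I, 36 of 37 rows were tested, 3 were downregulated (8.33%) and the median log2-Fold change was -0.05. Ndufb2, an accessory subunit of the membrane arm, was at 40.9, 43.1 and 45.7 CPM in the Control rats and at 32.1, 32.2 and 27.1 CPM in the IDPN-4wk rats. All treated libraries were below all control libraries, and the fall was the largest of the tested nuclear subunits, with a log2-Fold change of -0.50 (SE 0.10, Padj 0.00644). Ndufa1, a small membrane-arm subunit needed for assembly and encoded on the X chromosome, was at 84.1, 94.2 and 89.8 CPM in Control and at 70.5, 76.1 and 68.2 CPM in IDPN-4wk. Its groups did not overlap either, and it decreased by 0.32 on the log2 scale (SE 0.08, Padj 0.0177). Ndufs4, an accessory subunit near the NADH-oxidising end whose loss impairs complex I assembly, was at 118, 123 and 129 CPM in Control and at 102, 103 and 105 CPM in IDPN-4wk. The treated libraries lay close together below the controls, and the log2-Fold change was -0.26 (SE 0.07, Padj 0.0237). The calls of Ndufa1 and Ndufs4 were lost when libraries were scaled by their size alone, and each of 3 libraries ended the call of Ndufa1 when left out (Control replicates 2 and 3 and IDPN-4wk replicate 1), those 3 and IDPN-4wk replicate 2 that of Ndufs4. Ndufb2 stayed called under all of these settings.

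At the other end of complex I, Ndufab1, the mitochondrial acyl carrier protein, had the highest log2-Fold change, 0.33 (SE 0.12, Padj 0.0862). It was at 36.2, 35.6 and 36.0 CPM in Control and at 45.9, 52.6 and 36.8 CPM in IDPN-4wk, so that the groups did not overlap but the third treated library lay close to the controls. The remaining subunits with an unadjusted p under 0.05, picked out after their values were seen, were Ndufa5 (log2-Fold change 0.28, Padj 0.113), Ndufb3 (-0.31, Padj 0.0603) and Ndufs8 (-0.22, Padj 0.0625). DESeq2 called Ndufb3 lower. Ndufa5 and Ndufab1 were called higher with library size alone and without IDPN-4wk replicate 3. Ndufs8, a core subunit that holds iron-sulphur clusters of the electron path, was lower in all treated libraries than in all controls. The core subunits Ndufs1, Ndufs3, Ndufs7, Ndufv1 and Ndufv2, also named after their values were seen, had log2-Fold changes between -0.09 and 0.01, and none passed the test. In complex I, 31 of the 36 tested nuclear rows had a 95% interval within a 1.5-fold change in either direction.

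The upstream sequences of the 3 nuclear subunits called are shown because they are the nuclear members for which a change was found. Each runs 5′ to 3′ on the strand of its gene over the 250 bases before the RefSeq start (build GRCr8), with any motif match in capitals, at chrX:121293556-121293805 on the minus strand for Ndufa1, chr4:69334057-69334306 on the plus strand for Ndufb2 and chr2:47794915-47795164 on the minus strand for Ndufs4.
Ndufa1: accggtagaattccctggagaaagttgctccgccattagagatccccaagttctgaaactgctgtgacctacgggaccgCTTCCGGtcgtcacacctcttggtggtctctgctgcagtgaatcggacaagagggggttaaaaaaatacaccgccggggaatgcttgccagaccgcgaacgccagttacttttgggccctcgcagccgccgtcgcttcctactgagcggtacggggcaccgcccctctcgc
Ndufb2: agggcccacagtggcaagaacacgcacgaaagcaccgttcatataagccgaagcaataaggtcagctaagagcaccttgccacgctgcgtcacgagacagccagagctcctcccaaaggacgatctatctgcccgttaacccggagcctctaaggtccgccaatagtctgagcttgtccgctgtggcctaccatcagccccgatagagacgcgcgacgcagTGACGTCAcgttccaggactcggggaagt
Ndufs4: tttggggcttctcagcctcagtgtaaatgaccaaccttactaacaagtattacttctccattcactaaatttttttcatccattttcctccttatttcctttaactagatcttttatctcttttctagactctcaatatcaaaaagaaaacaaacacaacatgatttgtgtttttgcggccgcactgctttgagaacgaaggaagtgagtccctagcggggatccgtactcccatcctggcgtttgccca
Factors known for their part in the expression of respiratory genes include NRF1, the ETS family member GABP, CREB, YY1 and the oestrogen-related receptors. Exact matches were searched on both strands to GCATGCGC (NRF1), CCGGAAG (ETS), TGACGTCA (the cyclic AMP response element, CRE), AAGATGGCG (YY1) and TCAAGGTCA (oestrogen-related receptors), none of which contains another. The capitals are an ETS match 171 bases before the start of Ndufa1, on the opposite strand, and a CRE match 29 bases before the start of Ndufb2. Ndufs4 held none of the 5 motifs in this window.

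Of the 84 nuclear subunit symbols, 73 were matched to a RefSeq start. The ETS letters were found in 19 of these 73 windows (26.0%) against 7.74% of all 27457 windows, and the NRF1 letters in 9 (12.3%) against 2.38%. Both motifs were present together upstream of Atp5i, Atp5mg, Ndufa6 and Sdhb, none of which was called. CRE was found in 2 windows (2.74% against 1.70%), upstream of Ndufb2 and Cox8a. YY1 and the receptor motif were found in 1 window each (1.37% against 0.736% and 0.368%), those of Atp5pf and Atp5mc3. The 73 windows belong to protein-coding genes, whereas the 27457 were neither filtered by gene type nor matched for base composition. The shares therefore come from unlike sets. Matches describe letters in the reference sequence, and no binding was measured here.

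Complex II, which also belongs to the citric acid cycle and oxidises succinate, had the most even sum of the complexes across libraries. Its 4 subunits summed to 971, 963 and 973 CPM in Control and to 970, 988 and 966 CPM in IDPN-4wk, with means of 969 ± 5.50 and 975 ± 11.5 CPM (SD, n = 3). The groups overlapped and the treated mean was 100.6% of the control mean. Log2-Fold changes lay between -0.02 for Sdha, the flavoprotein (SE 0.06, Padj 0.846), and 0.05 for Sdhd, a membrane anchor (SE 0.08, Padj 0.716). None of the 4 was called, and all 4 intervals lay within a 1.5-fold change.

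In complex III, 9 nuclear rows were tested and none was called. Uqcr11, a small accessory subunit, had the lowest log2-Fold change (-0.19, SE 0.09, Padj 0.166), with 48.3, 48.9 and 50.9 CPM in Control and 42.9, 47.1 and 39.4 CPM in IDPN-4wk. These values did not overlap, although the test was not passed. The core subunit Uqcrc1 had the highest, 0.05 (SE 0.07, Padj 0.641). The rows summed to a mean of 846 ± 22.9 CPM in the controls and 843 ± 49.6 CPM in the treated rats (SD, n = 3), with overlapping libraries.

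In complex IV, 16 of 22 nuclear rows were tested and none was called, with a median log2-Fold change of -0.00085. The lowest value belonged to Cox7a1, the heart and muscle form of subunit 7a (-0.17, SE 0.32, Padj 0.751), and the highest to the second Cox6b1 row (0.38, SE 0.44, Padj 0.583), both at 4 CPM or less and with wide intervals. Mean sums were 1440 ± 64.3 CPM for Control and 1436 ± 216 CPM for IDPN-4wk (SD, n = 3). The group means were almost equal, while the treated libraries spread from 1220 to 1651 CPM, more widely than the controls.

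Complex IV has subunit forms that differ between tissues or respond to oxygen. No exchange was detected where both forms were tested, that is, Cox4i1 with Cox4i2 and Ndufa4 with Ndufa4l2. Other exchanges could not be judged, since 1 form was not tested or, for Cox7a2 beside Cox7a1, had no row among the members. Of the 16 rows of these families, 11 were tested and none was called, the smallest Padj being 0.411. Cox4i1, the general form of subunit 4, was at 203, 225 and 219 CPM in Control and at 196, 243 and 178 CPM in IDPN-4wk (log2-Fold change -0.07, Padj 0.698). Cox4i2, the form known from lung and low oxygen, was at 6.07, 6.85 and 4.95 CPM in Control and at 6.04, 6.09 and 7.53 CPM in IDPN-4wk (log2-Fold change 0.14, Padj 0.692). The same held for Ndufa4, counted here in complex IV (0.09, Padj 0.617), and its hypoxia-linked relative Ndufa4l2 (0.03, Padj 0.953). In each case the 2 groups overlapped. The other tested forms were Cox6a1 (0.17, Padj 0.411), the first Cox6b1 row (-0.00070, Padj 0.997), Cox7a2l (-0.08, Padj 0.494), which joins complexes III and IV, Cox7b (0.03, Padj 0.872) and Cox8a (-0.04, Padj 0.846). The muscle forms Cox6a2 and Cox8b had at most 4 counts in any library and the testis form Cox6b2 at most 6, whereas Cox7b2, Cox8c and the row named Cox6c-ps1 had none. A count of 0 allows up to 3 counts, the floor given above.

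Complex V had 16 nuclear rows, all tested and none called, with a median log2-Fold change of -0.0079. Atp5f1e, the epsilon subunit of the catalytic head, had the lowest value (-0.30, SE 0.17, Padj 0.253). It was at 30.7, 33.8 and 40.5 CPM in Control and at 26.4, 36.2 and 22.7 CPM in IDPN-4wk, so that the second treated library lay among the controls. When that library was left out, it was called lower, as was Ndufb3. Atp5mf, of the membrane part, had the highest value (0.13, SE 0.14, Padj 0.569). The catalytic beta subunit Atp5f1b, named after its values were seen, was lower without overlap (1509, 1468 and 1514 CPM against 1413, 1376 and 1366 CPM) but by -0.11 on the log2 scale (SE 0.07, Padj 0.260). Complex V summed to 3715 ± 97.5 CPM in the controls and 3617 ± 171 CPM in the treated rats (SD, n = 3). Outside the complexes, Atp5if1 (0.16, Padj 0.231) and Atp5s (-0.18, Padj 0.364) were not called.

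Over all nuclear encoded subunits, the sum was 9838 ± 271 CPM for Control and 9617 ± 674 CPM for IDPN-4wk (SD, n = 3), 97.8% of the control mean. Libraries did not overlap in 9 subunits that were lower and 2 that were higher, against 19.3% and 18.5% of all genes tested. The 95% interval lay within a 1.5-fold change for 69 of 81 subunits (85.2%), compared with 53.9% of all genes.

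Within the IDPN-4wk group the nuclear encoded subunits varied together. Replicate 2 was the highest treated library in 67 of 81 subunits (82.7%) and replicate 3 the lowest in 70 (86.4%), against 34.9% and 35.1% of all genes tested. The nuclear sum was 9648, 10270 and 8928 CPM in IDPN-4wk replicates 1, 2 and 3, against 9555, 9863 and 10090 CPM in the Control replicates. The median deviation from the control mean was -0.0073, 0.13 and -0.18 on the log2 scale in these treated libraries, and 0.017, 0.031 and 0.0053 over all genes. Complexes I, III, IV and V shared this order. In complex II the 3 treated medians lay between 0.014 and 0.021, but they rest on 4 rows. Of these, Sdhd followed the same order (164, 171 and 142 CPM in replicates 1, 2 and 3). Single rows of other complexes could be about as even, such as Uqcrc1 (317, 331 and 322 CPM), picked out after its values were seen. Replicate 2 was also the deepest library, and red blood cell markers summed to 150, 221 and 110 CPM in replicates 1, 2 and 3, the same order as the nuclear sum. Schwann cell markers summed to 7726, 5389 and 8265 CPM, the opposite order. The part of depth and of other cells in this spread was not tested. Without replicate 3, Ndufab1 and Ndufa5 were called higher and 3 subunits remained called lower.

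**Figure D2:**
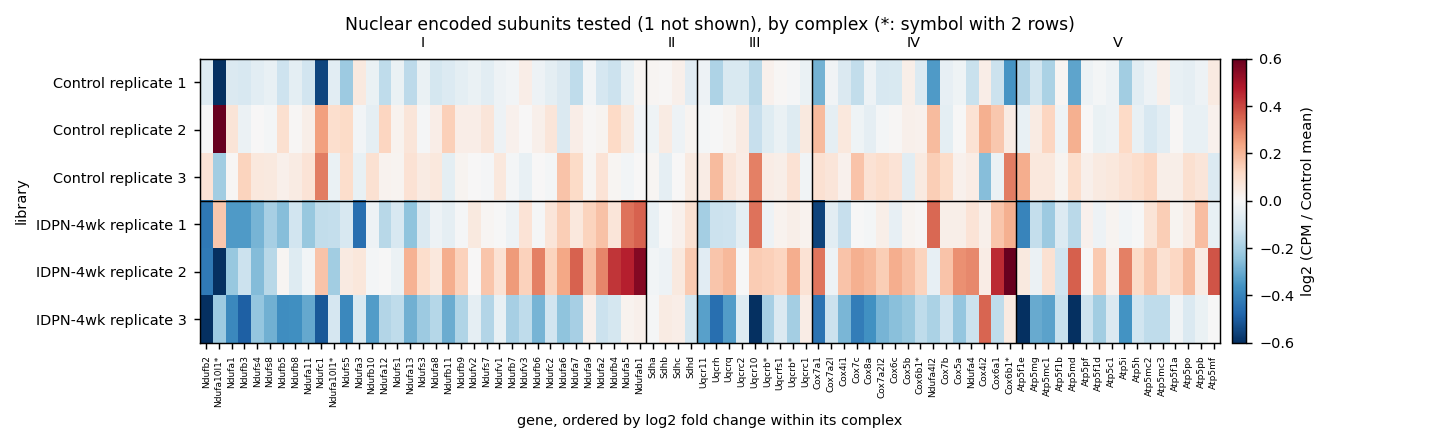
Log2 ratio of CPM to the mean log2 CPM of the Control libraries (colour) for the nuclear encoded subunits tested, 1 of them not shown, in columns by complex, across the 6 libraries in rows; red is above and blue below the control mean, and colours end at 0.6 in each direction. IDPN-4wk replicate 2 is mostly red and replicate 3 mostly blue across complexes I, III, IV and V, and complex II is pale throughout.

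The 13 mitochondrially encoded messengers together amounted to 31380, 34770 and 34590 CPM in Control and to 27310, 26130 and 31000 CPM in IDPN-4wk. The treated libraries were below all control libraries, though IDPN-4wk replicate 3 came close to Control replicate 1, and the treated mean was 83.8% of the control mean (33580 ± 1905 against 28140 ± 2542 CPM, SD, n = 3). As a share of the raw counts the groups overlapped, with 3.03, 3.32 and 3.34% in Control and 2.84, 2.73 and 3.18% in IDPN-4wk. Relative to the median of all genes, the median of the 13 genes was -0.316 on the log2 scale, and leaving out 1 library gave between -0.379 (Control replicate 1 left out) and -0.267 (IDPN-4wk replicate 2 left out). IDPN-4wk replicate 3 was the least lowered treated library by this sum, and it also held the most HC marker RNA of the treated libraries (1298, 1361 and 1666 CPM in replicates 1, 2 and 3). The order of the mitochondrial sum in the treated libraries was that of the supporting cell markers (6930, 6369 and 7526 CPM) and the Schwann cell markers (7726, 5389 and 8265 CPM), and differed from that of the HC markers for replicates 1 and 2. The part of any of these cells in the mitochondrial values was not tested.

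Complex IV contains the catalytic core made from mitochondrial DNA, with 2 of 3 genes downregulated. Mt-co2, which carries the copper site that accepts electrons from cytochrome c, was at 1669, 1915 and 1840 CPM in Control and at 1277, 1308 and 1417 CPM in IDPN-4wk. The groups were clearly apart, with a log2-Fold change of -0.44 (SE 0.08, Padj 0.00315), the largest of the mitochondrially encoded calls. Mt-co3 was at 3041, 3601 and 3136 CPM in Control and at 2436, 2512 and 2546 CPM in IDPN-4wk, again without overlap (log2-Fold change -0.38, SE 0.08, Padj 0.00712). Both stayed called when any library was left out and under every other setting tried with the same threshold. Mt-co1, which holds the haem and copper centre that reduces oxygen, was at 5681, 6033 and 6760 CPM in Control and at 4415, 4041 and 5888 CPM in IDPN-4wk. Here the third treated library reached the control range, and the log2-Fold change of -0.37 (SE 0.13, Padj 0.0691) was not called by edgeR. Mt-co1 was called by DESeq2 (Padj 0.0132), by edgeR without the low-count filter (Padj 0.0379) and without IDPN-4wk replicate 3 (log2-Fold change -0.55, Padj 0.00234). The 3 genes summed to 76.7% of the control mean, whereas the nuclear encoded subunits of the same complex summed to 99.7%.

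Complex III has a single mitochondrially encoded subunit, cytochrome b. Mt-cyb was at 4589, 5312 and 4914 CPM in Control and at 3847, 4002 and 4193 CPM in IDPN-4wk. All treated values were below the controls, and Mt-cyb was downregulated (log2-Fold change -0.30, SE 0.08, Padj 0.0210).

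Complex I takes 7 membrane-arm subunits from mitochondrial DNA, and 3 of them were downregulated. Mt-nd4l decreased by 0.36 on the log2 scale (SE 0.10, Padj 0.0271), from 69.1, 76.3 and 75.9 CPM to 56.8, 64.6 and 50.3 CPM. Mt-nd5 was at 618, 760 and 692 CPM in Control and at 549, 545 and 604 CPM in IDPN-4wk (log2-Fold change -0.29, SE 0.09, Padj 0.0427). Mt-nd4 was at 2115, 2272 and 2374 CPM in Control and at 1771, 1687 and 2083 CPM in IDPN-4wk (log2-Fold change -0.29, SE 0.09, Padj 0.0473). The groups of these 3 genes did not overlap, although Padj was near the threshold for Mt-nd5 and Mt-nd4. Mt-nd3 (-0.26, SE 0.09, Padj 0.0742) and Mt-nd6 (-0.30, SE 0.12, Padj 0.117), the messenger from the light strand, were not called by edgeR, whereas DESeq2 called Mt-nd3 (Padj 0.0351). Mt-nd1 was at 5409, 5866 and 5764 CPM in Control and at 4988, 4539 and 5689 CPM in IDPN-4wk (log2-Fold change -0.16, SE 0.09, Padj 0.231), with overlap, and was called without IDPN-4wk replicate 3 (Padj 0.0404). Mt-nd2 stood apart from the other 12 in direction, with 2804, 3063 and 3058 CPM in Control and 3049, 2733 and 3313 CPM in IDPN-4wk. Its log2-Fold change was 0.03 (SE 0.08, Padj 0.855, 95% interval from -0.16 to 0.21), and the sign turned when Control replicate 1 or IDPN-4wk replicate 3 was left out. The summed level of the 7 genes was 90.4% of the control mean, with overlap.

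Complex V takes Mt-atp6, of the proton channel, and the small Mt-atp8 from mitochondrial DNA, and neither was called by edgeR with all libraries. Mt-atp6 was at 5129, 5592 and 5664 CPM in Control and at 4689, 4444 and 4999 CPM in IDPN-4wk (log2-Fold change -0.21, SE 0.08, Padj 0.0722), and it was called by DESeq2 (Padj 0.0260) and without IDPN-4wk replicate 3. Mt-atp8 was at 10.4, 10.8 and 12.0 CPM in Control and at 6.97, 8.46 and 8.43 CPM in IDPN-4wk (log2-Fold change -0.47, SE 0.16, Padj 0.0679). In both, all treated libraries were below all controls. These genes share a messenger and overlap, as do Mt-nd4l and Mt-nd4, so the split of reads within each pair is uncertain. In all, 9 of the 13 genes were lower without overlap between the groups, as were 19.3% of all genes tested. Control replicate 1 was the lowest control in all 13, and without it 6 genes were again called. The calls of Mt-cyb, Mt-nd4, Mt-nd4l and Mt-nd5 were less stable: the count fell to 2 without Control replicate 2, without Control replicate 3 or without IDPN-4wk replicate 1, and to 3 without IDPN-4wk replicate 2. With library size alone 2 genes were called, against 25.6% of all genes. With upper quartile scaling 4 were called, against 20.5% of all genes, and Mt-nd4 (Padj 0.0695) and Mt-nd5 (Padj 0.0630) were lost.

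**Figure D3:**
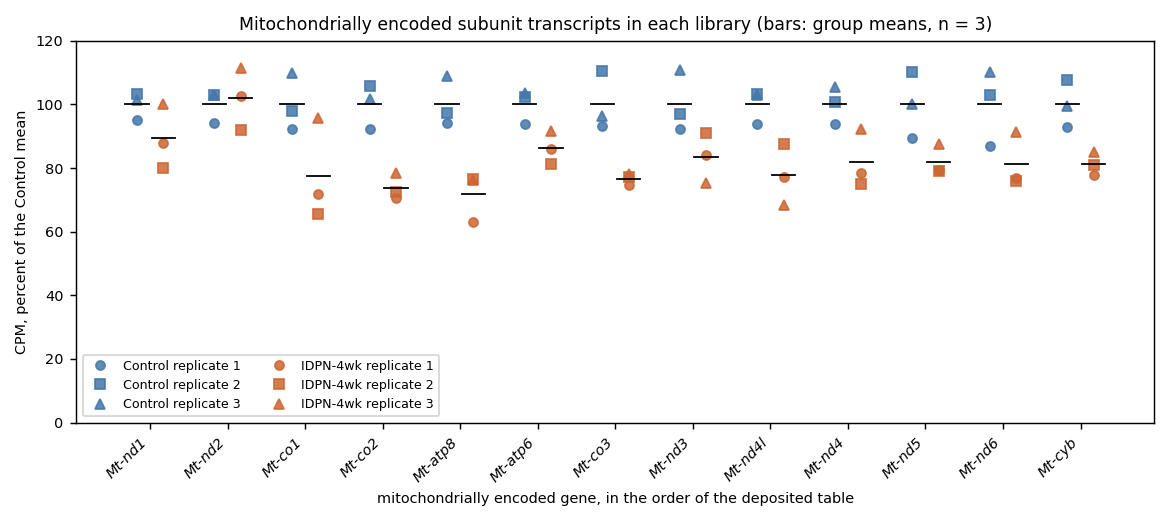
CPM of each mitochondrially encoded gene as percent of its Control mean (vertical axis, from 0) in every library, with genes in the order of the deposited table along the horizontal axis, which is their order along mitochondrial DNA; blue is Control, orange IDPN-4wk, shapes mark replicates and bars group means (n = 3). The treated means of Mt-nd1 and Mt-nd2 are 89.3 and 102% of Control, and those of the other 11 genes lie between 71.9 and 86.3%.

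Because the scaling of whole libraries cancels in a ratio within a library, each of 5 genes was also set against Mt-nd2. The ratio of Mt-co2 to Mt-nd2 was 0.595, 0.625 and 0.602 in Control and 0.419, 0.479 and 0.428 in IDPN-4wk, 72.7% of the control mean. It did not overlap between the groups, and the same was true of Mt-co3 (75.7%), Mt-co1 (75.8%), Mt-cyb (80.2%) and Mt-nd1 (87.5%). Mt-nd2 was taken as the base after its values were seen, so these ratios describe unequal change among the messengers and carry no test. They do not show that Mt-nd2 itself was unchanged.

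**Figure D4:**
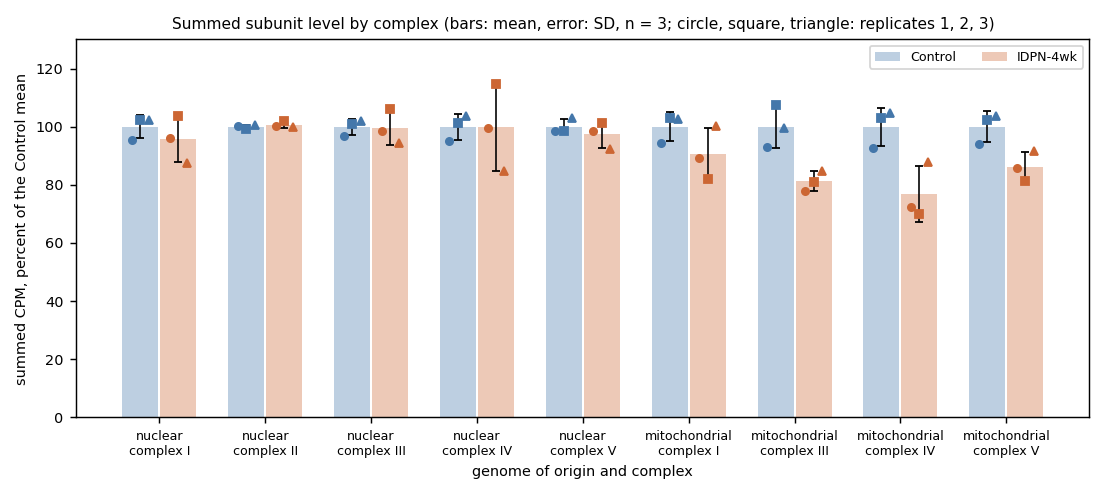
Summed CPM of the subunits of each complex as percent of the Control mean (vertical axis, from 0), by genome of origin and complex along the horizontal axis; bars are means, error bars SD (n = 3), and circles, squares and triangles are replicates 1, 2 and 3 of Control (blue) and IDPN-4wk (orange). The nuclear sums lie between 95.8 and 100.6% of Control, and the mitochondrial sums between 76.7 and 90.4%.

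Other genes of the pathway were read from lists. Of the factors that help to assemble the complexes, 2 were called, in opposite directions. Nubpl, which delivers iron-sulphur clusters to complex I, was downregulated (10.2, 12.7 and 13.1 against 8.27, 5.67 and 8.95 CPM, log2-Fold change -0.66, SE 0.20, Padj 0.0440). Sco1, a copper chaperone of complex IV, was upregulated (18.1, 18.4 and 18.2 against 22.3, 23.3 and 24.7 CPM, log2-Fold change 0.36, SE 0.11, Padj 0.0403). Nubpl was called in 2 and Sco1 in none of the 6 fits that leave out a library. Nubpl was also lost with library size alone (Padj 0.0649) and upper quartile scaling (Padj 0.0512), and Sco1 with DESeq2 (Padj 0.0764) and without the low-count filter (Padj 0.0572). Within the lists, 1 of 15 factors was called for complex I, 0 of 3 for complex II, 0 of 6 for complex III, 1 of 16 for complex IV and 0 of 3 for complex V. These shares (6.67, 0, 0, 6.25 and 0%) lay below the 19.4% of all genes called. The lists' median log2-Fold changes were 0.04, -0.08, 0.22, -0.11 and 0.0086. The electron carriers outside the symbol rule were not called, with 0.08 for Cyc1 (Padj 0.497), the cytochrome c1 subunit of complex III, and 0.11 for Cycs (Padj 0.419), cytochrome c.

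For the expression of mitochondrial DNA, 26 genes were tested and 1 was called (3.85%, below the 19.4% of all genes), with a median log2-Fold change of 0.06. This gene was Lrpprc, whose product binds mitochondrial messengers and is known to stabilise them. It was at 138.5, 132 and 121 CPM in Control and at 104, 104 and 103 CPM in IDPN-4wk, without overlap (log2-Fold change -0.33, SE 0.07, Padj 0.00988), and remained called whichever library was left out. Tfam, which packages mitochondrial DNA and starts its transcription, was at 57.7, 63.5 and 59.7 CPM in Control and at 67.9, 74.9 and 65.2 CPM in IDPN-4wk, which was higher without overlap but did not pass the test (log2-Fold change 0.20, SE 0.08, Padj 0.119). Mterf2, named after its values were seen, was lower without overlap and not called either (-0.65, SE 0.22, Padj 0.0578). In this list 2 genes were lower and 3 higher without overlap, against 19.3% and 18.5% of all genes tested. The part of these genes in the mitochondrial values was not tested.

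Of 9 regulators of mitochondrial biogenesis, 2 were called (22.2%, close to the 19.4% of all genes), in opposite directions and past a 1.5-fold change. Esrrg, an orphan nuclear receptor that acts on genes of oxidative metabolism, was at 3.87, 5.38 and 5.10 CPM in Control and at 1.51, 1.75 and 1.48 CPM in IDPN-4wk (log2-Fold change -1.59, SE 0.28, Padj 0.00281). Pprc1, a coactivator related to PGC-1, was at 23.0, 20.5 and 16.9 CPM in Control and at 33.0, 41.3 and 26.6 CPM in IDPN-4wk (log2-Fold change 0.74, SE 0.17, Padj 0.0116). Both changes were larger than any among the subunits. Nrf1 (0.04, Padj 0.802), Ppargc1a (-0.12, Padj 0.505), which encodes PGC-1 alpha, and Esrra (0.14, Padj 0.753) were not called.

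The routes that feed the chain were read in the same way, beside the 19.4% of all genes called. Of 15 genes of pyruvate dehydrogenase and the citric acid cycle, Suclg2, a subunit of succinyl-CoA ligase, was downregulated (97.3, 98.7 and 97.0 against 69.6, 76.1 and 79.4 CPM, log2-Fold change -0.38, SE 0.07, Padj 0.00538), and the median was 0.06. Of 16 glycolytic genes, 4 were downregulated and none was upregulated (25.0% called, near that background), with a median of -0.17. Ldhb, the lactate dehydrogenase subunit common in oxidative cells, was at 1006, 1063 and 1075 CPM in Control and at 732, 779 and 808 CPM in IDPN-4wk (log2-Fold change -0.44, SE 0.07, Padj 0.00181). The other called genes were Tpi1 (-0.41, Padj 0.00400), Pfkm (-0.38, Padj 0.00603) and Pgk1 (-0.25, Padj 0.0296). Pgk1 lost its call with library size alone (Padj 0.163), with upper quartile scaling (Padj 0.0525) and without any of the Control replicates or IDPN-4wk replicate 2, whereas the other 3 kept theirs. Among 14 genes of the mitochondrial membranes and protein import, Ucp2, an inner membrane carrier, was upregulated (0.38, SE 0.09, Padj 0.0171), and the median was 0.05. Without Control replicate 2, Control replicate 3 or IDPN-4wk replicate 2, Ucp2 was not called (Padj up to 0.0752).

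Markers of other cells that the dissected tissue could hold were read beside the 19.4% of all genes called, 11.5% lower and 7.89% higher. Supporting cell markers (4 of 10 tested called lower) summed to between 10500 and 11780 CPM in the controls and between 6369 and 7526 CPM in the treated rats. Most of that fall lay in Otog (mean 6262 against 3199 CPM) and Gjb6 (1622 against 892 CPM), both called. Otogl (log2-Fold change -0.89, Padj 0.00035) and Gjb2 (-0.34, Padj 0.0182) were called lower too. Not called were Sox2 (-0.27, Padj 0.347) and Tecta (-0.19, Padj 0.165) below 0. Above 0 and not called were Sox9 (0.24, Padj 0.0540), Sox10 (0.19, Padj 0.113), Hes1 (0.36, Padj 0.0783) and Cldn9 (0.07, Padj 0.681). Neuron markers (4 lower and 2 higher of 8) summed to between 129 and 135 against between 83.6 and 89.1 CPM, and Schwann cell markers (5 lower of 6) to between 8122 and 10380 against between 5389 and 8265 CPM. Dark cell and melanocyte markers (3 lower of 6) summed to between 1443 and 1879 against between 896 and 1105 CPM. Red blood cell markers (1 higher of 3) lay between 95.3 and 113 against between 110 and 221 CPM, and macrophage markers (1 higher of 6, 16.7%) between 79.8 and 103 against between 67.9 and 125 CPM. Skeletal muscle is rich in mitochondria, and its markers, of which 2 of 10 rows were tested, summed to between 17.4 and 23.8 against between 49.0 and 84.8 CPM. That difference came from Myh4 alone (mean 7.94 against 58.1 CPM, log2-Fold change 2.87, Padj 3.7e-05). The other tested gene, Tnnc2, was at 10.9 against 8.39 CPM (log2-Fold change -0.37, Padj 0.295), and Ckm and Tnni2 were at 0 in every library. The part of these cell types in the subunit values was not tested.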

How the data were processed

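Vestibular epithelia of 6 rats (3 Control, 3 IDPN-4wk) were profiled by RNA-seq. The deposited values are expected counts per gene, which the authors estimated with RSEM (1.3.0 in their processing notes, another version in their methods) after mapping to Rnor6.0 with STAR 2.5.3a and the Rnor6.0.92 annotation. They were whole numbers as deposited, so rounding changed none. RSEM divides reads that match several genes, so rows with a close copy, pseudogenes of subunits included, are less certain, and the protocol keeps no strand. Members, lists and named genes were chosen with earlier results of these data known.

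Low genes were removed by filterByExpr (at least 10 counts, 15 in total). After TMM scaling, the groups were tested with edgeR 4.0.16 (quasi-likelihood, R 4.3.3), and p was adjusted by Benjamini-Hochberg over all 14352 genes tested (Padj). Called means Padj under 0.05. The study used DESeq2 with an added fold change of 1.5. The script was tested on simulated data. Named are all called members, the lowest and highest of each complex and origin, all mitochondrially encoded genes, the isoform families, Ndufs4 and Mt-nd4, and up to 4 called genes per list. Cyc1, Cycs, Tfam, Nrf1, Ppargc1a and Esrra were named whatever their result. A p measures the spread between animals, 1 library each, and floors cover counting error only. Replicates were numbered in accession order, and the labels give 1 batch. Alternatives were DESeq2 size factors, library size alone, upper quartile scaling, TMM without mitochondrially encoded genes, DESeq2 1.42.0, other filters, the added fold threshold and leaving out each library. Sequences are from RefSeq. For 1 subunit, values are not reported here by name.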

Additional observations from a re-analysis of the deposited data

How the results depend on the processing

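No paired analysis was made, because the groups are different rats, 1 library each, and the labels give no pairing. Values below are log2-Fold changes, or counts of subunits called. With libraries scaled by size alone, the median of all genes moved from 0.02 to 0.13, 1 nuclear subunit was called lower (Ndufb2) and 3 higher (Ndufa5, Ndufa9 and Ndufab1), 2 mitochondrially encoded genes were lower (Mt-co2 and Mt-co3) with a median of -0.189, and Sdha was at 0.0865. With upper quartile scaling Sdha was at 0.0109 and 4 mitochondrially encoded genes were called, against 20.5% of all genes. The median of complex II was 0.0236 as reported, 0.0152 with DESeq2 size factors, 0.132 with library size alone, 0.0565 with upper quartile scaling, 0.0160 with TMM without mitochondrially encoded genes and 0.0150 with DESeq2. With the added fold change of 1.5, 0 nuclear and 0 mitochondrially encoded subunits were called. DESeq2 called 4 and 9 lower, against 18.3% of the genes it gave an adjusted p. When 1 library was left out, between 1 and 4 nuclear subunits were lower and between 0 and 2 higher, between 2 and 8 mitochondrially encoded genes were lower, and the median of complex II lay between 0.00157 and 0.0270, that of complex I between -0.133 and -0.00386, III between -0.117 and 0.0416, IV between -0.0978 and 0.0855 and V between -0.0561 and 0.0552. With library size alone the medians of I, III, IV and V were 0.0556, 0.0803, 0.109 and 0.102. In the same fits Mt-nd2 lay between -0.0529 (without IDPN-4wk replicate 3) and 0.0950 and was at -0.0140 without Control replicate 1, Sdhd lay between -0.0096 and 0.111, and Atp5mf between -0.0261 and 0.194, both lowest without IDPN-4wk replicate 2. The cause of these shifts was not tested. Of the other values of named genes, 398 kept direction and side of the threshold, 54 lost and 10 gained a call.

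With 3 animals in a group, small changes can be missed: 69 of 81 nuclear intervals lay within a 1.5-fold change, the others being widest for rows of few counts. Levels are transcripts of whole tissue and say nothing of protein, of respiration or of the amount of mitochondrial DNA. The effect of nuclear copies of mitochondrial sequence and of oligo-dT priming on the mitochondrial values was not tested.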
